A study of Mus musculus with 16 samples.

Results

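The comparison described here is that of mouse blastocysts treated with SB203580, an inhibitor of the p38 MAP kinases, against control blastocysts. It holds 6 of the 12 samples of the series and 8 of its 16 Affymetrix arrays, chosen by their titles, and every probe set was used. The SB203580 group was treated at 20 µM. The control group carries titles beginning with WT and no named treatment, and the labels do not say whether it received the inhibitors' solvent. The other samples, used here for the spread and for a direct comparison, were treated with SP600125, an inhibitor of JNK, at 25 µM, or with U0126, an inhibitor of MEK, at 20 µM. No strain, duration of treatment, embryo number per sample or pooling is named in the labels. Each group has 3 samples. Sample 1 of each group was prepared by Affymetrix's small sample labelling assay and read on a 430A and a 430B array, joined here as 1 sample. Samples 2 and 3 were prepared by Affymetrix's Two-Cycle Target Labeling assay and read on 430 2.0 arrays. Array type and labelling assay cannot be told apart, so a sample 1 is compared only with another sample 1. The labels do not state whether the samples of a group came from separate cultures, and the p-values cover the spread among these samples only, which may be technical.

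The blastocyst is the last stage before implantation. An outer epithelium, the trophectoderm, pumps sodium, and water follows to fill a cavity. The inner cell mass sorts into epiblast, which forms the embryo proper, and primitive endoderm, which forms yolk sac epithelium. The p38 kinases are activated by stress, osmotic and growth factor signals. They phosphorylate transcription factors and a set of further kinases, the MAPK-activated protein kinases, which act on actin regulators and on the stability of messenger RNA. SB203580 occupies the ATP pocket of p38 alpha and p38 beta. It therefore acts on kinase activity, and a level of p38 messenger RNA does not measure its action.

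Signal is in arbitrary units. The authors had scaled each array to a mean of 500 with 2 percent of values trimmed at each end. The median signal of the 430 2.0 arrays was between 61.1 and 68.9 in these groups, and over all probe sets tested the median log2 difference of SB203580 samples 1, 2 and 3 from controls was -0.04, 0.02 and 0.05. The correlation of log2 signal between samples ranged from 0.954 to 0.962 for the same array type, and from 0.709 to 0.72 for different types. The ratio of 3' to 5' GAPDH signal, which reflects RNA quality and labelling length, was 3.05 to 4.80 in controls and 2.84 to 3.54 in SB203580 samples over the 430A and 430 2.0 arrays. For actin this ratio was higher in SB203580 samples than in controls. It was 2.807 against 2.47 on 430A and 2.634 against 2.188 on 430B arrays, SB203580 first. On 430 2.0 arrays it was 1.749 and 1.711 against 1.697 and 1.575. The part of RNA quality in the results was not tested. All 13 defining markers of trophectoderm, epiblast and primitive endoderm passed the expression filter. The keratin genes Krt8 and Krt18 lay at the 99.8th and 99.9th percentile of mean signal, and Gata4 was lowest, at the 62.5th. Of defining markers of cumulus and granulosa cells 2 of the 4 named lay under the expression filter, of uterine and oviduct epithelium 4 of 6, and of blood and immune cells 3 of 5. Their summed signal on 430 2.0 arrays was 190.0 and 242 against 155 and 319 for cumulus, 301 and 259 against 168 and 245 for uterine, and 203 and 277 against 337 and 373 for blood markers, controls first. On the arrays of sample 1, where the cumulus gene Foxl2 made up most of its list, the sums were 2144 against 2058, 719 against 823 and 529.9 against 522. The part of such cells in the results was not tested.

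Most of the transcripts called between SB203580 and control fell. Of 27022 probe sets tested, 105 passed an adjusted p under 0.05 (limma), or 0.389 percent: 24 rose (0.0888 percent) and 81 fell (0.3 percent). They named 88 genes, 0.698 percent of the 12614 genes tested, of which 21 rose (0.166 percent) and 67 fell (0.531 percent). The other 7 of the 105 name no single gene in the annotation used here. The median rise was 0.96 on the log2 scale and the median fall -1.20, and 69 probe sets changed at least 2-fold, 12 upward and 57 downward. All 105 had 1 sign in the 3 samples and did not overlap the controls of their array type. Of all probe sets tested, 11.6 percent were likewise higher without overlap and 11.9 percent lower. An unadjusted p under 0.05 was reached by 2528.

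The count depended on how the spread was modelled and on single samples. Without the intensity trend in the estimate of the spread, 1 probe set passed, Glipr1, and the prior then carried 2.55 degrees of freedom in place of 9.71. Leaving out control 1, 2 or 3 gave 33, 45 or 70 probe sets, and leaving out SB203580 sample 1, 2 or 3 gave 79, 52 or 41. When each array was divided by its median signal 71 passed, and the share that rose was 9.86 percent in place of 22.9 percent. The 430 2.0 arrays alone gave 35, of which 31 were among the 105. Of the 88 genes, 20 kept their call in all 6 omissions. They comprised Slc45a4, Spic and Ap5z1, which rose, and Rfx4, Amn, Glipr1, Ak7, Slc39a2, Upk1b, Mapkapk3, Fdft1, Cyp51, Nsdhl, Csta1, Cryab, Phldb2, Wls, Hsd17b6, Acot2 and Vgll3, which fell. Of these, Slc45a4, Ap5z1, Amn, Upk1b, Mapkapk3 and Vgll3 lost their call on the 430 2.0 arrays alone. Just inside the threshold were Grhl1 (adjusted p = 0.0473), Oxct1 (0.0491) and Slco2a1 (0.0496), and just outside it Zfp995 (0.0514) and Fabp5 (0.0564).

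**Figure D1:**
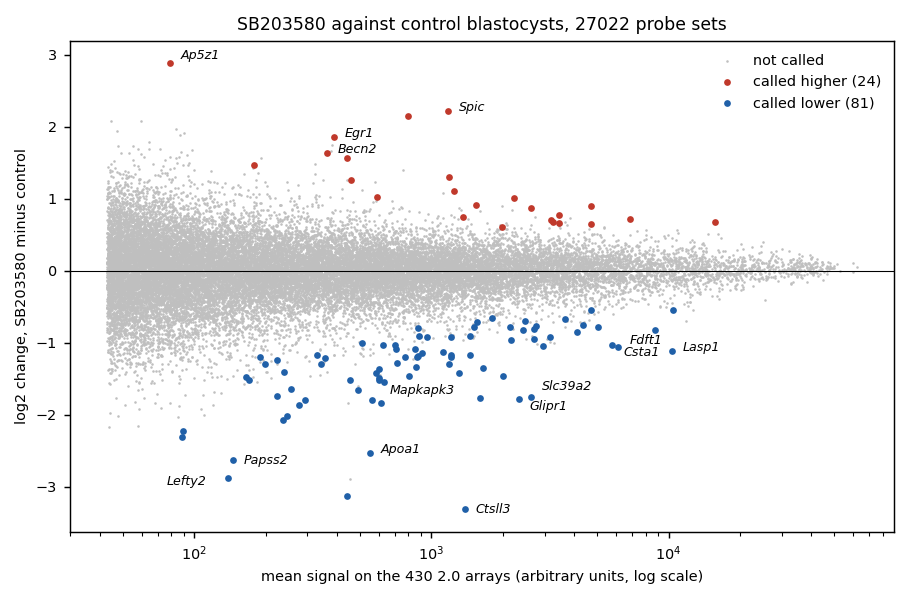
Log2 change of SB203580 against control (vertical axis) by mean signal on the 430 2.0 arrays (horizontal axis, arbitrary units, log scale) for 27022 probe sets. Grey points did not pass, 24 red points passed as higher and 81 blue points as lower, and the spread of the grey points widens toward low signal.

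Values are given as signals or log2 changes of SB203580 over control (change ± standard error, n = 3 samples per group, fitted with array type as a block). A gene with several probe sets is given by the brightest that passed. Where no adjusted p stands beside a change said to have risen or fallen, it was under 0.05. Counts of called list or family members stand beside the shares over all genes tested, 0.531 percent that fell and 0.166 percent that rose. The lists and families were written with earlier results of these data known. A count above these shares therefore describes the list and is no evidence of enrichment.

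Among genes of the inhibited pathway, 1 fell. This was Mapkapk3, whose product is a protein kinase switched on by p38. Its signal was 4506, 899 and 567 in controls 1, 2 and 3 and 1399.5, 233 and 280.4 in SB203580 samples 1, 2 and 3. Every treated sample was over 2-fold below every control of its array type, and Mapkapk3 fell by 1.52 (SE 0.22, adjusted p = 0.00394). A second Mapkapk3 probe set stood at -0.79 ± 0.27 (adjusted p = 0.313). Mapk14, which encodes p38 alpha, had signals of 1536, 2939 and 2248 in the controls and 1875, 2838 and 2661 in the treated samples by its brightest probe set. These ranges overlapped on the 430 2.0 arrays, and the change was 0.16 ± 0.14 (adjusted p = 0.798). Of its 3 other tested probe sets none passed, and the one farthest from 0 stood at 1.26 ± 0.39 (adjusted p = 0.23), with samples 1, 2 and 3 at 0.24, 2.01 and 1.54. Both probe sets of Mapk11, the p38 beta gene, lay under the expression filter and were not tested. Of the other substrate kinases, Mapkapk2 stood at -0.02 ± 0.28 (adjusted p = 0.995) and Mapkapk5 at 0.28 ± 0.14 (0.592). The kinases that p38 shares with ERK, Mknk1 and Mknk2, stood at 0.25 ± 0.23 (0.806) and 0.21 ± 0.15 (0.753). Of 14 tested p38 kinases and their activators none passed, with Map2k6, an activating kinase, at 0.81 ± 0.26 (adjusted p = 0.249) and Mapk13, the p38 delta gene, at 0.73 ± 0.24 (0.265). Of 16 substrates and phosphatases 1 fell, Mapkapk3, where 0.531 percent of all genes fell. The median of that list was -0.03 beside 0.01 over all genes tested.

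Both Lefty genes, which encode secreted antagonists of the growth factor Nodal and are themselves induced by Nodal signalling, fell. Lefty2 signal was 933, 256 and 208 in controls 1, 2 and 3 and 42.9, 61.2 and 21.8 in SB203580 samples 1, 2 and 3. Every treated sample was over 3-fold below every control of its array type, and the change was -2.88 ± 0.47 (adjusted p = 0.00825). Lefty1 signal was 316, 423 and 393 in controls 1, 2 and 3 and 179, 24.7 and 111 in SB203580 samples 1, 2 and 3. Treated sample 2 was lowest and treated sample 1 closest to its control, and the change was -2.01 ± 0.42 (adjusted p = 0.045). Lefty2 did not pass without control 1 (adjusted p = 0.0791) or SB203580 sample 3 (0.0547). Lefty1 did not pass without control 1 (adjusted p = 0.0577), control 2 (0.197), control 3 (0.156), SB203580 sample 2 (0.119) or SB203580 sample 3 (0.0722). Of 22 tested genes of Nodal and TGF-beta signalling these 2 fell and none rose, against 0.531 percent of all genes that fell. The list's median was -0.29, at -0.05, -0.34 and -0.42 in samples 1, 2 and 3, and 20 of its members had a negative change, against 6185 of 12614 genes tested. Nodal itself, named after its value was seen, stood at -0.61 ± 0.28 (adjusted p = 0.521).

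Of 23 tested Wnt signalling genes 2 fell and none rose, where 0.531 percent of all genes fell. Cdx1, a homeobox gene and a target of Wnt signalling, had signals of 262, 518 and 305 in controls 1, 2 and 3 and 41.4, 113 and 79.7 in SB203580 samples 1, 2 and 3. The treated samples lay well under the controls on both array types, and the change was -2.07 ± 0.35 (adjusted p = 0.0111). Dkk1, a secreted Wnt antagonist and itself a Wnt target, had signals of 1643, 476 and 565 in controls 1, 2 and 3 and 382, 121 and 171 in SB203580 samples 1, 2 and 3. It changed by -1.86 ± 0.28 (adjusted p = 0.00494), while its brighter second probe set stood at -1.22 ± 0.28 (adjusted p = 0.0753). Dkk1 did not pass without control 1 (adjusted p = 0.0555), and Cdx1 did not pass without control 1 (adjusted p = 0.0694), control 2 (0.117), SB203580 sample 1 (0.0577) or SB203580 sample 3 (0.0658). The median of the Wnt list was -0.07, with 14 negative and 9 positive members. Wls, which carries Wnt ligands to the cell surface and was not on that list, fell as well (-1.42 ± 0.22, adjusted p = 0.00691). Its signal was 586, 793 and 774 in controls 1, 2 and 3 and 288, 197 and 301 in SB203580 samples 1, 2 and 3, and its other 2 probe sets stood at -1.02 ± 0.25 and -1.46 ± 0.33.

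Amn and Apoa1, genes of absorptive endoderm epithelium, were among the falls. Amn encodes the membrane partner of the uptake receptor cubilin, and its signal was 979.7, 995 and 1038 in controls 1, 2 and 3 and 134, 477 and 337 in SB203580 samples 1, 2 and 3. Every treated sample was over 2-fold below the controls of its array type, with a change of -1.80 ± 0.26 (adjusted p = 0.00494). Apoa1, the main protein of high density lipoprotein, had signals of 106, 605 and 257 in controls 1, 2 and 3 and 24.8, 21.5 and 68.1 in SB203580 samples 1, 2 and 3. Treated samples 1 and 2 lay under the filter's signal of 42.9, and the change was -2.53 ± 0.48 (adjusted p = 0.0271). All 4 probe sets of Apoa1 had negative changes and 2 passed. Apoa1 did not pass without control 1 (adjusted p = 0.0825), control 2 (0.17), SB203580 sample 2 (0.136) or SB203580 sample 3 (0.0829). Of 11 tested genes of visceral endoderm uptake and apolipoproteins these 2 fell and none rose, beside 0.531 percent of all genes that fell. The list's median was -0.54, with 7 negative and 4 positive members, and it was -1.22, 0.04 and -0.17 in samples 1, 2 and 3. The apolipoprotein symbol family had 7 tested genes, 4 of them positive, and a median of 0.09. Of 12 tested primitive endoderm transcription factors and receptors none passed. The median of this list was -0.49 with 9 negative members, and Sox7 and Sox17, transcription factors of this lineage, stood at -1.14 ± 0.28 (adjusted p = 0.095) and -0.62 ± 0.21 (0.286). Of 16 tested basement membrane genes none passed either, with Lama1, a laminin chain, at -0.85 ± 0.20 (adjusted p = 0.0933) and Sparc at -0.66 ± 0.16 (0.0992). The summed signal of the defining primitive endoderm markers was 5093, 11260 and 11063 in controls 1, 2 and 3 and 5260.4, 8972 and 10957 in the treated samples. The labels describe RNA of blastocysts, so fewer cells of a type and less RNA per cell cannot be told apart.

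Enzymes of cholesterol synthesis formed the list with the most called members, 3 of 17, all lower, against 0.531 percent of all genes tested. Fdft1, squalene synthase, had signals of 1922, 8217 and 8922 in controls 1, 2 and 3 and 896, 3942 and 4312 in SB203580 samples 1, 2 and 3. Control and treated samples stood well apart on both array types, and Fdft1 changed by -1.06 ± 0.12 (adjusted p = 0.00162), while a second called probe set gave -0.94 ± 0.17. Cyp51, which demethylates lanosterol, had signals of 634, 1896 and 2425 in controls 1, 2 and 3 and 294, 913 and 918 in SB203580 samples 1, 2 and 3. Every treated sample was over 2-fold below the controls of its array type. Cyp51 changed by -1.17 ± 0.17 (adjusted p = 0.00494). Its other 2 probe sets did not pass, at -1.26 ± 0.40 (adjusted p = 0.256) and -0.78 ± 0.61 (0.768), nor did their mean with the called one (-1.07, adjusted p = 0.112). Nsdhl, a sterol dehydrogenase acting later in the route, had signals of 2061, 3885 and 3984 in controls 1, 2 and 3 and 1299, 1978 and 2251 in SB203580 samples 1, 2 and 3 and changed by -0.82 ± 0.12 (adjusted p = 0.00565). The median of the 17 was -0.46, and 15 had a negative change. In samples 1, 2 and 3 the median was -0.29, -0.51 and -0.49. Of 12 tested genes of sterol uptake, transport and regulation none passed, with Insig1, which retains the sterol sensor in the endoplasmic reticulum, at -0.51 ± 0.16 (adjusted p = 0.238) and Srebf2, the transcription factor of this route, at -0.72 ± 0.27 (0.363).

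Promoters of the called cholesterol genes are shown because Srebf2 protein binds sterol response sites beside NF-Y sites. Of the 3 called genes 2 matched an entry of the RefSeq promoter table (build GRCm38.p6), which spans 250 bases before to 50 bases after the start. The sequences run 5′ to 3′ on the strand of the gene, and capitals mark CCAAT, the NF-Y motif, or its reverse complement. Cyp51 lies on the minus strand at chr5:4104648-4104947 and Nsdhl on the plus strand at chrX:72918271-72918570.
Cyp51: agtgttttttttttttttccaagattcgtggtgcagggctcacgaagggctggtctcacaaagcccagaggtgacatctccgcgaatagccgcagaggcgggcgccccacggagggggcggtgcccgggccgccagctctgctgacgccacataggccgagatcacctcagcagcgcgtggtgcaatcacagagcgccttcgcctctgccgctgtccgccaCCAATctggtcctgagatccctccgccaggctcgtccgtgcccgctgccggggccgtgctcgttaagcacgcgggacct
Nsdhl: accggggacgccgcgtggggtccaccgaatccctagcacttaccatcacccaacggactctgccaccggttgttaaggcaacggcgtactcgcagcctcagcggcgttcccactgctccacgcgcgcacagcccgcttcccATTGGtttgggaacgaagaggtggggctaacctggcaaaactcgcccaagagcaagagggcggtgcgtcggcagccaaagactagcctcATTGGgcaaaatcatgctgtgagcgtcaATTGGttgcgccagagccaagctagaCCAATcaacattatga
The Cyp51 window holds 1 CCAAT match and the Nsdhl window 4, of which 3 are on the opposite strand. Of the 14 tested enzymes of the list with a promoter entry, 13 hold CCAAT on either strand, against 37.4 percent of 32851 promoters in the table. The sterol response motif searched, TCACNCCAC on either strand, was found in 1 of the 14 and in 1.24 percent of promoters. For the Wnt list, CTTTGAT, a TCF and LEF motif, was found on either strand in 1 of 13 tested members with an entry, against 3.73 percent of promoters, and not in the Dkk1 window. A match describes these letters only.

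Further called genes of lipid metabolism moved in both directions. Sgms2, which makes sphingomyelin at the plasma membrane, had signals of 529, 428 and 338 in controls 1, 2 and 3 and 178, 108 and 74.7 in SB203580 samples 1, 2 and 3. It fell by 1.79 (SE 0.36) and did not pass without control 1 (adjusted p = 0.182), control 2 (0.17), control 3 (0.0817), SB203580 sample 2 (0.127) or SB203580 sample 3 (0.191). Cers3, a ceramide synthase, changed by -1.21 ± 0.20, Acsl6, which activates long-chain fatty acids, by -1.13 ± 0.23, and Acot2, a mitochondrial acyl-CoA thioesterase, by -1.29 ± 0.17. Acot2 signal was 3103, 1454 and 1341 in controls 1, 2 and 3 and 1331, 553 and 544 in SB203580 samples 1, 2 and 3. Hsd17b6, a hydroxysteroid dehydrogenase, changed by -1.35 ± 0.19, the secreted phospholipase gene Pla2g10 by -0.69 ± 0.14 and the lipase gene Abhd4 by -0.67 ± 0.12. Oxct1, which lets mitochondria use ketone bodies, fell by 2 probe sets of 4, the brighter at -0.78 ± 0.12. Lpcat1 and Cpt1a rose. Lpcat1, which puts acyl chains back on lysophosphatidylcholine, had signals of 484, 739 and 798 in controls 1, 2 and 3 and 1615, 1439 and 1929 in SB203580 samples 1, 2 and 3 and rose by 1.31 (SE 0.26), but its brightest probe set stood at 0.64 ± 0.15 (adjusted p = 0.0753). Cpt1a, which carries long-chain fatty acids into mitochondria, had signals of 476, 337 and 327 in controls 1, 2 and 3 and 819, 634 and 902 in SB203580 samples 1, 2 and 3 and rose by 1.03 (SE 0.20). Lpcat1 and Cpt1a did not pass when any 1 of the 6 samples was left out (adjusted p up to 0.196 and 0.162). The mean of all tested probe sets did not pass for Sgms2 (-0.97, adjusted p = 0.111), Acsl6 (-0.70, adjusted p = 0.151) or Lpcat1 (0.80, adjusted p = 0.111). Nor did that mean pass for Acot2 (-1.001, adjusted p = 0.0745) or Abhd4 (-0.481, adjusted p = 0.151). Calls were also lost for Cers3 without control 1 or 3 or SB203580 sample 3 (adjusted p up to 0.0651), Oxct1 without control 1 (adjusted p up to 0.0527), Acsl6 without any 1 sample (adjusted p up to 0.194), Pla2g10 without control 1, 2 or 3 or SB203580 sample 2 or 3 (adjusted p up to 0.215) and Abhd4 without control 1 or 2 or SB203580 sample 1, 2 or 3 (adjusted p up to 0.141). Of 16 tested genes of fatty acid synthesis and desaturation none passed, with a median of -0.03, Mid1ip1 at -0.80 ± 0.22 (adjusted p = 0.155) and Me1 at 0.39 ± 0.15 (0.4).

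The largest fitted fall was that of Ctsll3, a cathepsin L-like protease gene. Its signal was 1041, 1388 and 707 in controls 1, 2 and 3 and 4.8, 209 and 266 in SB203580 samples 1, 2 and 3. Treated sample 1 lay below the constant of 12.6 that was added before the log2, and samples 1, 2 and 3 differed from their controls by -5.92, -2.18 and -1.85. The change was -3.32 ± 0.57 (adjusted p = 0.0132). On the 430 2.0 arrays alone Ctsll3 differed by -2.01, so its rank rests on sample 1. Named genes with a larger fall there were Apoa1 (-2.96), Papss2 (-2.78), Lefty1 (-2.63), Ak7 (-2.38), Lefty2 (-2.27) and Arhgap27 (-2.13). Ctsll3 did not pass without control 1 (adjusted p = 0.103) or control 2 (0.0767). Csta1, a cystatin that inhibits cathepsins, was brighter, with signals of 15132, 9059 and 9179 in controls 1, 2 and 3 and 7296, 5154 and 3851 in SB203580 samples 1, 2 and 3. It fell by 1.04 (SE 0.13), with no overlap on either array type. Of 25 tested cathepsins, secreted proteases and inhibitors these 2 fell and none rose, where 0.531 percent of all genes fell, and the list's median was 0.01. Papss2, which makes the sulphate donor for proteoglycans, steroids and other substrates, had signals of 146, 337 and 388 in controls 1, 2 and 3 and 19, 21.1 and 75.3 in SB203580 samples 1, 2 and 3. Treated samples 1 and 2 lay under the filter's signal of 42.9, with a change of -2.63 ± 0.42 (adjusted p = 0.00734). Papss2 did not pass without control 2 (adjusted p = 0.056) or control 3 (0.0513), and its second, dim probe set stood at -0.64 ± 0.53, with a mean of the pair of -1.64, adjusted p = 0.059. It was the 1 called gene among 17 tested for sulphation of glycosaminoglycans and proteoglycans, whose median was -0.12, where 0.531 percent of all genes fell.

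The lowest adjusted p was that of Glipr1, a gene of the CAP family of secreted and membrane proteins. Its signal was 1396, 3104 and 2748 in controls 1, 2 and 3 and 373, 802 and 925 in SB203580 samples 1, 2 and 3. Control and treated samples were clearly apart on both array types. Glipr1 fell by 1.79 (SE 0.14, adjusted p = 9.85e-06), and samples 1, 2 and 3 differed from their controls by -1.87, -1.85 and -1.65. The call of this probe set held in all 6 omissions and in 12 other settings. A second, dimmer Glipr1 probe set stood at -0.06 ± 0.40 (adjusted p = 0.981), so the 2 probe sets disagree, and their mean did not pass (-0.93, adjusted p = 0.0909).

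Other large falls were spread over unrelated functions. Slc39a2, a zinc importer, had signals of 8733, 2254 and 2722 in controls 1, 2 and 3 and 2648, 745 and 678 in SB203580 samples 1, 2 and 3, with each treated sample over 3-fold below the controls of its array type. It changed by -1.76 ± 0.23 (adjusted p = 0.00207) and was the 1 solute carrier of 252 tested that fell, while Slc45a4 was the 1 that rose. Over all genes tested 0.531 percent fell and 0.166 percent rose, so these counts describe nothing particular to solute carriers. Ak7, an adenylate kinase, had signals of 6325, 2163 and 1921 in controls 1, 2 and 3 and 4271, 416 and 349 in SB203580 samples 1, 2 and 3. Its treated sample 1 was much closer to its control than samples 2 and 3 were, and the change was -1.78 ± 0.27 (adjusted p = 0.0061). Rfx4, a transcription factor of the RFX family, had signals of 2329.5, 710.4 and 989.9 in controls 1, 2 and 3 and 425, 246 and 311 in SB203580 samples 1, 2 and 3 and changed by -1.84 ± 0.21 (adjusted p = 0.0015). Upk1b, a uroplakin of the tetraspanin superfamily, had signals of 1069, 323 and 519.7 in controls 1, 2 and 3 and 360.3, 123 and 89.4 in SB203580 samples 1, 2 and 3 and changed by -1.74 ± 0.26 (adjusted p = 0.00565). All 4 Upk1b probe sets had negative changes and 2 passed. Arhgap27 was dim, with signals of 219.5, 124 and 89.2 in controls 1, 2 and 3 and 30.7, 8.1 and 22.6 in SB203580 samples 1, 2 and 3. Its treated sample 2 lay under the added constant and the change was -2.23 ± 0.39 (adjusted p = 0.0146). Arhgap27 did not pass without control 1 (adjusted p = 0.128), control 2 (0.0945) or SB203580 sample 2 (0.0706).

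**Figure D2:**
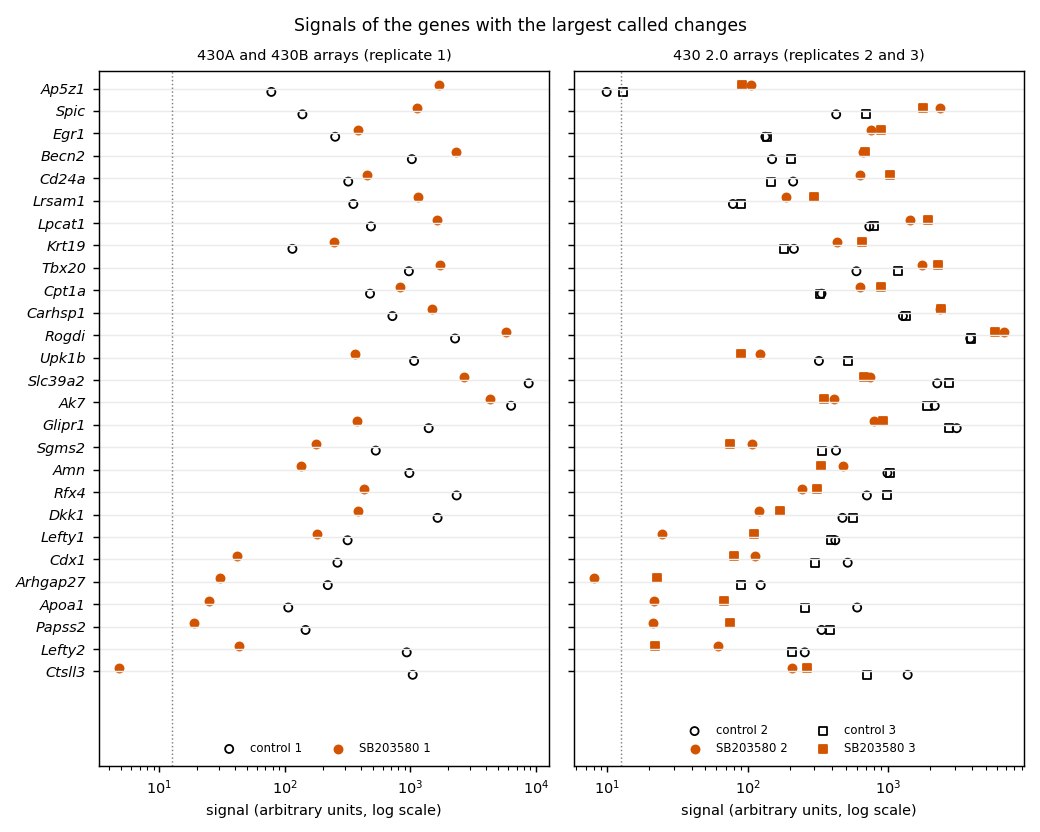
Signal (horizontal axes, arbitrary units, log scale) in each control (open) and SB203580 (filled) sample for the 12 genes with the largest called rises and the 15 with the largest called falls. The left panel holds sample 1 of each group and the right panel samples 2 (circles) and 3 (squares), and the dotted line marks the added constant of 12.6. Filled points lie to the right of open ones for every rise and to the left for every fall, as the calls require.

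Of 18 tested trophectoderm transcription factors 1 fell, where 0.531 percent of all genes fell. This was Grhl1, a grainyhead factor of epithelia. Its signal was 475, 903 and 877 in controls 1, 2 and 3 and 309.9, 312 and 298 in SB203580 samples 1, 2 and 3. Treated sample 1 differed less from its control than samples 2 and 3 did (-0.60, -1.47 and -1.54), and the change was -1.20 ± 0.25 (adjusted p = 0.0473). Grhl1 did not pass without control 1 (adjusted p = 0.128), control 2 (0.187), control 3 (0.134), SB203580 sample 2 (0.212) or SB203580 sample 3 (0.22). The median of the list was -0.17, with 15 negative members. Cdx2, the factor that sets trophectoderm fate, had signals of 1857, 3740.4 and 5309 in controls and 1792, 3744 and 4114 in treated samples, which overlap on the 430 2.0 arrays. Krt8 and Krt18 overlapped there too. Eomes had signals of 3189.5, 7197 and 5562 against 2843, 4629 and 4238, controls first, and Gata3 3367, 6122 and 4148 against 2784, 3445 and 2409. Neither passed, but both were lower without overlap, as were 11.9 percent of all probe sets. The summed trophectoderm markers were 38267, 92506.5 and 100950 in controls and 34208, 86912 and 88945 in treated samples. Beside 0.531 percent of all genes that fell, 1 of 19 tested Hippo signalling genes fell, Amotl2, which binds YAP at cell junctions. Amotl2 signal was 1045, 1668 and 1599 in controls 1, 2 and 3 and 348, 705 and 966 in SB203580 samples 1, 2 and 3 and its change -1.17 ± 0.22 (adjusted p = 0.0236). Amotl2 did not pass without control 1 (adjusted p = 0.142), control 2 (0.113), control 3 (0.0685), SB203580 sample 1 (0.127) or SB203580 sample 2 (0.115). The median of the Hippo list was -0.15. Vgll3, which binds the same TEAD factors as YAP, was on no list and fell by all 3 of its probe sets (-1.08 ± 0.18, -0.96 ± 0.13 and -0.92 ± 0.12). The brightest Vgll3 probe set had signals of 8472, 3009 and 3688 in controls 1, 2 and 3 and 4046, 1707 and 1978 in SB203580 samples 1, 2 and 3.

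Of 22 tested actin and SRF target genes 1 fell, where 0.531 percent of all genes fell. This was Cnn2, a calponin that binds actin. Its signal was 1970.0, 3379 and 2762 in controls 1, 2 and 3 and 1248, 1722 and 1696 in SB203580 samples 1, 2 and 3. The change was -0.77 ± 0.15 (adjusted p = 0.0271), and Cnn2 did not pass when any 1 of the 6 samples was left out (adjusted p up to 0.158). The median of the list was -0.19, with 19 negative members. Other called genes with cytoskeletal roles are given here singly, and Krt19 and Ssna1 among the rises. Phldb2, which anchors microtubules at the cell cortex, changed by -1.46 ± 0.20, with signals of 427, 1287 and 1128 in controls 1, 2 and 3 and 124, 472 and 458 in SB203580 samples 1, 2 and 3. The actin binding proteins Palld, Lasp1 and Lcp1 changed by -1.52 ± 0.29, -1.12 ± 0.18 and -0.55 ± 0.10. For Lasp1 7 of 9 probe sets and for Palld 2 of 4 had negative changes, and 1 of each passed. The mean over probe sets passed for neither (Lasp1 -0.31, adjusted p = 0.469, Palld -0.34, adjusted p = 0.741). The microtubule binding genes Nav3 and Gas2l3 changed by -1.0 ± 0.19 and -0.66 ± 0.13. The mean over probe sets also did not pass for Lcp1 (-0.52, adjusted p = 0.0666) or Gas2l3 (-0.86, adjusted p = 0.0582). Calls were lost for Palld without control 1, 2 or 3 or SB203580 sample 3 (adjusted p up to 0.126), Lasp1 without control 2 or 3 (adjusted p up to 0.0539), Lcp1 without control 1, 2 or 3 or SB203580 sample 2 or 3 (adjusted p up to 0.12), Nav3 without any 1 sample (adjusted p up to 0.17) and Gas2l3 without control 1 or 3 or SB203580 sample 1, 2 or 3 (adjusted p up to 0.177).

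Of 14 tested genes of the sodium pump, aquaporins and ion exchange 1 fell, against 0.531 percent of all genes. This was Atp12a, a proton and potassium pump. Its signal was 655, 1114 and 1191 in controls 1, 2 and 3 and 390.5, 526 and 607 in SB203580 samples 1, 2 and 3. The change was -0.92 ± 0.18 (adjusted p = 0.0325), with a median of -0.25 for the list. Atp12a did not pass without control 1 (adjusted p = 0.128), control 2 (0.12), control 3 (0.112), SB203580 sample 2 (0.168) or SB203580 sample 3 (0.122). No tight or adherens junction gene passed among 21 tested, with a median of -0.02, Pkp2, a desmosomal plakophilin, at -0.38 ± 0.12 (adjusted p = 0.238) and Cldn6, a claudin, at 0.55 ± 0.20 (0.352). No epiblast and pluripotency gene passed among 20 tested. Their median was 0.04, with Pou5f1 at 0.39 ± 0.16 (adjusted p = 0.408) and Esrrb at 0.70 ± 0.29 (0.433), both transcription factors of pluripotent cells. Nanog had signals of 1111, 1764 and 2376 in controls and 1403, 1717 and 2308 in treated samples.

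Transcripts that rose were fewer and included 3 transcription factor genes. Spic, an Ets family factor, had signals of 138, 429 and 703 in controls 1, 2 and 3 and 1122, 2356 and 1789 in SB203580 samples 1, 2 and 3. No treated sample overlapped the controls. Spic rose by 2.22 (SE 0.28, adjusted p = 0.00207), and its second probe set rose by 2.15 (SE 0.28). Spic was the 1 gene called of 18 tested Ets factors, where 0.166 percent of all genes rose. Egr1, an immediate early zinc finger factor, had signals of 252, 134 and 137 in controls 1, 2 and 3 and 383, 754 and 898 in SB203580 samples 1, 2 and 3. It rose by 1.86 (SE 0.37, adjusted p = 0.0356), far less in sample 1 than in samples 2 and 3, and did not pass without control 2 (adjusted p = 0.188), control 3 (0.149), SB203580 sample 2 (0.162) or SB203580 sample 3 (0.198). Of 20 tested immediate early genes it was the 1 called, beside 0.166 percent of all genes that rose, and the median of the list was 0.05. Tbx20, a T-box factor, had signals of 971, 598 and 1182 in controls 1, 2 and 3 and 1729, 1766 and 2280.5 in SB203580 samples 1, 2 and 3. It rose by 1.10 (SE 0.23, adjusted p = 0.0421) and did not pass without control 1 (adjusted p = 0.178), control 2 (0.197), SB203580 sample 2 (0.146) or SB203580 sample 3 (0.228), or as the mean of its 3 probe sets (0.70, adjusted p = 0.25).

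Rises on the autophagy and endosome lists were 1 of 23 and 2 of 22 tested genes, where 0.166 percent of all genes rose. Becn2, a beclin of autophagy and receptor turnover, had signals of 1025, 149.7 and 204 in controls 1, 2 and 3 and 2293, 670.0 and 683 in SB203580 samples 1, 2 and 3. Every treated sample was over 2-fold above the controls of its array type, a rise of 1.64 (SE 0.27, adjusted p = 0.00865). Becn2 did not pass without control 1 (adjusted p = 0.053), control 2 (0.0705), SB203580 sample 2 (0.0599) or SB203580 sample 3 (0.0733). Lrsam1, a ubiquitin ligase of endosomal sorting, had signals of 351, 78.7 and 90.1 in controls 1, 2 and 3 and 1156, 188 and 296 in SB203580 samples 1, 2 and 3. It rose by 1.47 (SE 0.29, adjusted p = 0.0351) and did not pass without control 1 (adjusted p = 0.152), control 2 (0.141), control 3 (0.0817), SB203580 sample 1 (0.174) or SB203580 sample 3 (0.183). Ap5z1, a subunit of an endosomal adaptor complex, had signals of 78.0, 9.9 and 12.9 in controls 1, 2 and 3 and 1681, 107 and 91.6 in SB203580 samples 1, 2 and 3. Control 2 lay under the added constant of 12.6 and control 3 just above it, both under the filter's signal of 42.9. This probe set, 1 of the 2 endosome rises, passed the filter only through inhibitor-treated samples, which brought its mean to 78.9. By this dim probe set Ap5z1 rose by 2.89 (SE 0.43, adjusted p = 0.00494), the largest fitted rise. On the 430 2.0 arrays alone it differed by 2.22, less than Egr1 (2.49). The other 4 Ap5z1 probe sets did not pass, the brightest stood at 0.50 ± 0.16 (adjusted p = 0.253), and the mean of all 5 did not pass (0.77, adjusted p = 0.122). Of the lysosome and autophagy genes the 1 that rose was Becn2, and the median was 0.21 with 19 positive members. The endosome and ubiquitin sorting genes had a median of 0.02.

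Of 6 tested keratin list genes 1 rose, against 0.166 percent of all genes. This was Krt19, a keratin of simple epithelia. Its signal was 115, 214 and 181 in controls 1, 2 and 3 and 245, 438 and 653 in SB203580 samples 1, 2 and 3. It rose by 1.26 (SE 0.25, adjusted p = 0.0346) and did not pass when any 1 sample was left out (adjusted p up to 0.197). Krt8 and Krt18, the dominant keratins of trophectoderm, did not pass. Cd24a, a surface glycoprotein, had signals of 319.5, 212 and 148 in controls 1, 2 and 3 and 452, 630.2 and 1035 in SB203580 samples 1, 2 and 3. Its rise of 1.57 (SE 0.33, adjusted p = 0.045) was smallest in sample 1, and it did not pass without control 2 (adjusted p = 0.181), control 3 (0.172), SB203580 sample 1 (0.0577), SB203580 sample 2 (0.116) or SB203580 sample 3 (0.247). The mean of the 3 Cd24a probe sets did not pass (1.23, adjusted p = 0.112). Carhsp1, an RNA binding protein, had signals of 718, 1284 and 1342 in controls 1, 2 and 3 and 1487, 2346 and 2397 in SB203580 samples 1, 2 and 3 and rose by 0.91 (SE 0.15, adjusted p = 0.00876). Rogdi had signals of 2264, 3876 and 3921 in controls 1, 2 and 3 and 5787, 6741 and 5837 in SB203580 samples 1, 2 and 3 and rose by 0.91 (SE 0.15, adjusted p = 0.00911). Carhsp1 did not pass without control 1 (adjusted p = 0.0791), SB203580 sample 2 (0.0507) or SB203580 sample 3 (0.0638), and Rogdi did not pass without control 1 (adjusted p = 0.0791), SB203580 sample 1 (0.0727) or SB203580 sample 2 (0.0507).

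The other rises were under 1 on the log2 scale. Pmm1, a phosphomannomutase of glycan precursor supply, rose by 0.88 and Npl, which breaks down sialic acid, by 0.71. The solute carrier Slc45a4 rose by 0.77, the palmitoyltransferase gene Zdhhc12 by 0.74 and the small nucleolar RNA host gene Snhg3 by 0.71. Ssna1, Zfand5 and D230025D16Rik rose by 0.68, 0.67 and 0.65. Ssna1 encodes a microtubule binding protein. The brightest of the 5 Zfand5 probe sets stood at 0.21 ± 0.14 (adjusted p = 0.7), and the mean of the Zfand5 probe sets did not pass (0.21, adjusted p = 0.754). B2m, the light chain of class I histocompatibility molecules, rose by 0.60. Of these Slc45a4 passed in all 6 omissions, but not on the 430 2.0 arrays alone or by its probe set mean (0.58, adjusted p = 0.0648). The Pmm1 mean did not pass either (0.85, adjusted p = 0.0733). The call was lost for Snhg3 without control 1 or SB203580 sample 3 (adjusted p up to 0.0694), Pmm1 without control 1 or SB203580 sample 2 or 3 (adjusted p up to 0.0554) and Npl without control 1 or 3 or SB203580 sample 1, 2 or 3 (adjusted p up to 0.16). It was also lost for Zdhhc12 without any 1 sample (adjusted p up to 0.178), Ssna1 without any 1 sample (adjusted p up to 0.172), Zfand5 without any 1 sample (adjusted p up to 0.208), D230025D16Rik without any 1 sample (adjusted p up to 0.236) and B2m without any 1 sample (adjusted p up to 0.194).

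The remaining falls are given by role. Cryab, a small heat shock protein, fell by both of its probe sets (-1.47 ± 0.19 and -1.29 ± 0.25). It was the 1 gene called of 16 tested heat shock genes, where 0.531 percent of all genes fell. Its brighter probe set had signals of 826, 2917 and 3122 in controls 1, 2 and 3 and 286, 998 and 1199.6 in SB203580 samples 1, 2 and 3. Transcription factor genes that fell were Foxq1, a forkhead factor (-1.54 ± 0.25), and Sox6 (-1.17 ± 0.24). Each was the 1 called of its family, of 23 and 11 tested, beside 0.531 percent of all genes that fell. Smyd1, a methyltransferase known from muscle, changed by -1.64 ± 0.26 by 1 of its 5 probe sets, and their mean did not pass (-0.72, adjusted p = 0.3). Pgam2, the muscle phosphoglycerate mutase, changed by -1.05 ± 0.19. Signalling genes that fell were S1pr5, a sphingosine phosphate receptor (-1.65 ± 0.29), the ephrin ligand Efna1 (-1.41 ± 0.29) and the G protein subunit gene Gng2 (-0.83 ± 0.16). Ccng2, a cyclin linked to cell cycle exit, changed by -1.20 ± 0.21, and the mean of its probe sets did not pass (-0.77, adjusted p = 0.178). Nor did that of Sox6 (-1.10, adjusted p = 0.101) or Gng2 (-0.85, adjusted p = 0.081). The call was lost for Foxq1 without control 1 or SB203580 sample 2 (adjusted p up to 0.0694), Sox6 without any 1 sample (adjusted p up to 0.219), Smyd1 without control 1 (adjusted p up to 0.0694) and Pgam2 without control 1 or 2 or SB203580 sample 1, 2 or 3 (adjusted p up to 0.124). It was also lost for S1pr5 without control 1 or 2 or SB203580 sample 3 (adjusted p up to 0.125), Efna1 without any 1 sample (adjusted p up to 0.17), Gng2 without any 1 sample (adjusted p up to 0.162) and Ccng2 without control 1, 2 or 3 or SB203580 sample 2 or 3 (adjusted p up to 0.118).

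Further falls were those of Efemp1, a fibulin of the extracellular matrix (-1.42 ± 0.25), Cpn1, a carboxypeptidase subunit (-1.36 ± 0.25), Serpinb6c, a serpin (-0.75 ± 0.12), Anxa3, an annexin (-1.04 ± 0.20), and Slco2a1, a prostaglandin transporter (-0.92 ± 0.19). St3gal6, a sialyltransferase, changed by -0.79 ± 0.15, and Cyb5b, a cytochrome b5 of mitochondria, by -0.91 ± 0.14. Germ line genes that fell were Morc1 (-1.34 ± 0.22) and Tex19.2 (-0.91 ± 0.18). Tmem40 fell by 2 of its 3 probe sets, the brightest called at -1.15 ± 0.20. Tmem125 changed by -1.48 ± 0.29, Fry by -1.20 ± 0.23, Smim22 by -0.86 ± 0.17, Mpped2 by -0.80 ± 0.16 and Ifrd1 by -0.54 ± 0.11. The brighter probe set of Tmem125 stood at -0.41 ± 0.13 (adjusted p = 0.249). The second, dimmer probe sets of Fry and Smim22 stood at 0.35 ± 0.35 and 0.65 ± 0.65. The mean over probe sets did not pass for Fry (-0.42, adjusted p = 0.567), Smim22 (-0.10, adjusted p = 0.945), Cpn1 (-0.73, adjusted p = 0.494) or St3gal6 (-0.43, adjusted p = 0.233). It did not pass for Slco2a1 (-0.79, adjusted p = 0.152) or Mpped2 (-0.58, adjusted p = 0.0575) either. Eprn, Gm4926, 4930486L24Rik and E330016L19Rik changed by -1.19 ± 0.21, -0.82 ± 0.17, -1.20 ± 0.18 and -1.50 ± 0.23. None of these kept its call in all 6 omissions. The call was lost for Efemp1 without control 2 or 3 or SB203580 sample 2 or 3 (adjusted p up to 0.117), Cpn1 without control 1, 2 or 3 or SB203580 sample 2 or 3 (adjusted p up to 0.113), Serpinb6c without control 1 or SB203580 sample 3 (adjusted p up to 0.0694), Anxa3 without control 1, 2 or 3 or SB203580 sample 1 or 3 (adjusted p up to 0.155) and Slco2a1 without control 1 or 2 or SB203580 sample 1, 2 or 3 (adjusted p up to 0.291). So it was for St3gal6 without control 1, 2 or 3 or SB203580 sample 2 or 3 (adjusted p up to 0.146), Cyb5b without control 1 or 2 or SB203580 sample 2 (adjusted p up to 0.06), Morc1 without control 1 or 2 or SB203580 sample 3 (adjusted p up to 0.0951), Tex19.2 without control 1, 2 or 3 or SB203580 sample 1 or 3 (adjusted p up to 0.178) and Tmem40 without control 1 or 2 or SB203580 sample 2 or 3 (adjusted p up to 0.125). The same held for Tmem125 without any 1 sample (adjusted p up to 0.207), Fry without any 1 sample (adjusted p up to 0.141), Smim22 without any 1 sample (adjusted p up to 0.204), Mpped2 without control 1 or 2 or SB203580 sample 1, 2 or 3 (adjusted p up to 0.214) and Ifrd1 without any 1 sample (adjusted p up to 0.195), and for Eprn without control 3 or SB203580 sample 1, 2 or 3 (adjusted p up to 0.0745), Gm4926 without control 1 or 2 or SB203580 sample 2 or 3 (adjusted p up to 0.284), 4930486L24Rik without control 1 (adjusted p up to 0.053) and E330016L19Rik without control 1 (adjusted p up to 0.053).

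Several lists held no called gene. Of 18 tested FGF and ERK feedback genes none passed, with a median of -0.12 and the receptor genes Fgfr3 and Fgfr2 at -0.96 ± 0.33 (adjusted p = 0.31) and -0.37 ± 0.15 (0.415). Of 17 BMP signalling genes the nearest were Bmper, which binds BMP outside the cell, at -1.38 ± 0.32 (0.0809), and Id3, a BMP target, at 0.83 ± 0.22 (0.14). Amino acid response and serine synthesis genes had a median of -0.22, with 21 of 22 negative and Mthfd2, a mitochondrial folate enzyme, at -0.71 ± 0.18 (0.118). Endoplasmic reticulum chaperones had a median of -0.17 over 21 genes, with Dnajc3, a co-chaperone, at -0.91 ± 0.23 (0.12). For p53 targets and apoptosis it was -0.20 over 18 genes, with Cdkn1a, a cell cycle inhibitor, at -0.93 ± 0.23 (0.0992). Mitosis genes had a median of 0.12 over 21, with Cdc25c, a mitotic phosphatase, at 0.41 ± 0.17 (0.438), and DNA replication genes -0.01 over 22, with the sliding clamp gene Pcna at 0.27 ± 0.10 (0.34). Respiratory chain subunits had a median of 0.01 over 20 and ribosomal protein genes 0.06 over 52. For the other lists without a call the median was 0.05 for NRF2 and glutathione genes, 0.04 for aryl hydrocarbon receptor targets, -0.09 for glycolysis, 0.01 for ribosome biogenesis and -0.10 for chromatin and DNA methylation. It was 0.08 for imprinted genes, -0.002 for cleavage stage and oocyte transcripts, -0.20 for 3 cumulus cell genes and 0.19 for 4 blood cell genes. Of the nearest genes in these, Slc16a1, a lactate transporter, stood at 0.59 ± 0.15 (0.107), Dnmt3l, a cofactor of DNA methylation, at -0.70 ± 0.18 (0.129) and Phlda2, an imprinted placental gene, at -0.62 ± 0.23 (0.358). Of 20 gene families taken by symbol, those of zinc finger Zfp, tetraspanin, claudin, dual specificity phosphatase, Rab, ribosomal protein, histone, aquaporin, collagen and laminin genes held no call. These medians stand beside 0.01 for all 12614 genes, and nothing particular to a list was tested. A further list, uterine and oviduct epithelium, had 6 tested genes, all negative and none called, with a median of -0.44.

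**Figure D3:**
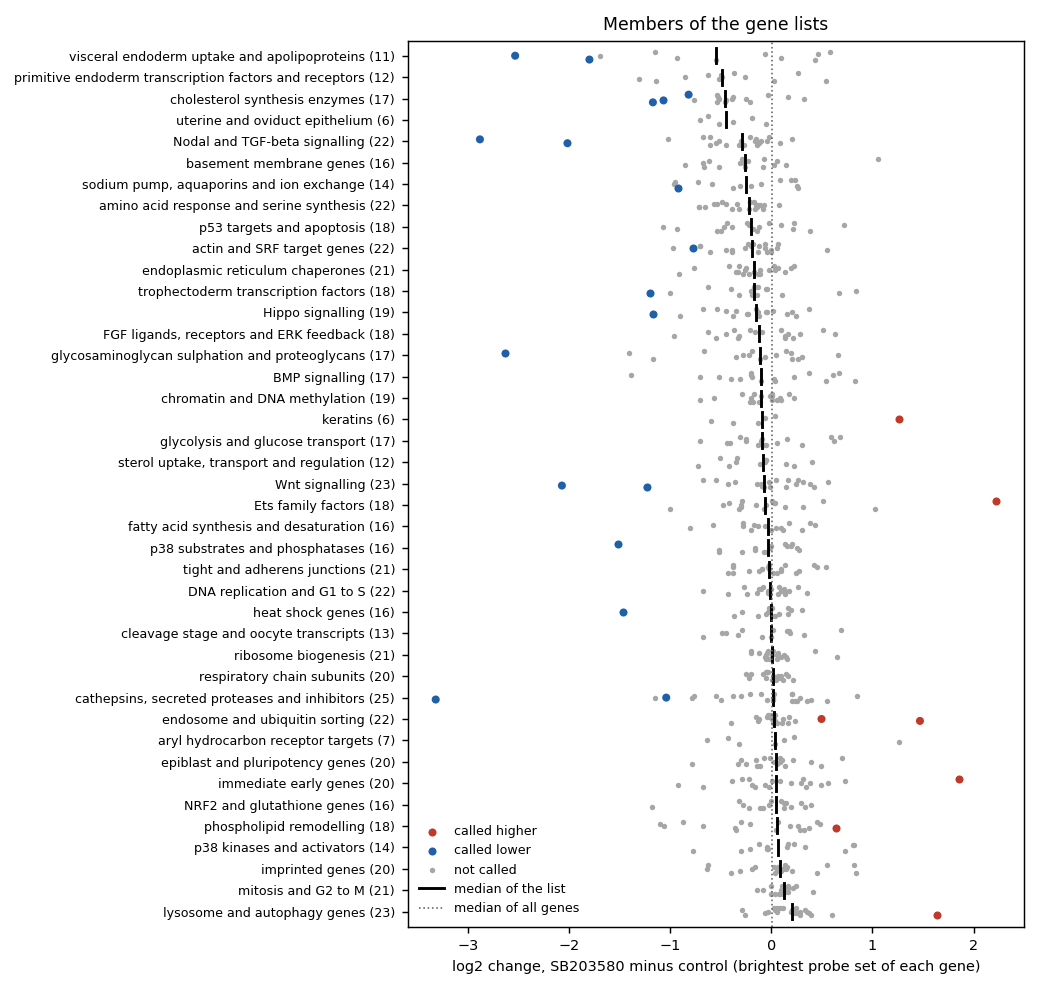
Log2 change of SB203580 against control (horizontal axis) for the tested members of each gene list, 1 point per gene by its brightest tested probe set, with the number of members in parentheses. Red and blue points are genes with any probe set called higher or lower, black bars are list medians, and the dotted line is the median of all genes, 0.01. The 3 called cholesterol enzymes and the 2 Lefty genes lie left of the line.

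The called changes were set beside the samples of the other inhibitors, which share the controls with SB203580, so changes against control are given side by side and the difference was tested directly. Because the genes were chosen on the SB203580 samples, which enter these differences too, the counts describe and support nothing. Over all probe sets, 213 were called between SB203580 and SP600125 (0.788 percent: 0.226 higher and 0.563 lower with SB203580). Between SB203580 and U0126 371 were called (1.37 percent: 0.533 higher and 0.84 lower). Without SB203580 sample 2 or 3 the first count was 103 or 102 and the second 145 either way, and without SB203580 sample 1 they were 142 and 216. Of the 24 probe sets that rose against control, 5 differed from SP600125 and 12 from U0126, and of the 81 that fell 36 and 40 did. Of all 105, 24 differed from both and 36 from neither. None differed in the direction opposite to its change. The 24 that differed from both comprised 1 that rose, Snhg3, and 23 that fell, among them Ctsll3, Arhgap27, Glipr1, Ak7, Slc39a2, S1pr5, Smyd1, Wls, Hsd17b6, Acot2, Grhl1, Ccng2, Atp12a, St3gal6, Cnn2, Pla2g10 and Abhd4. Glipr1 changed by -1.79 with SB203580, -0.08 with SP600125 and 0.03 with U0126, and its difference was -1.71 ± 0.14 from SP600125 (adjusted p = 6.5e-06) and -1.81 ± 0.14 from U0126 (7.88e-06). Slc39a2 differed by -1.92 ± 0.23 from SP600125 and -2.04 ± 0.23 from U0126 (adjusted p = 0.000325 and 0.000286). Ctsll3 changed by -3.32, 1.24 and -0.71 with the 3 inhibitors in that order, and its difference from SP600125 was -4.55 ± 0.57 (adjusted p = 0.000591). Without SB203580 sample 2 or 3, 9 probe sets differed from both, without control 1, 8, and without control 2, 12.

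Other genes differed from 1 inhibitor. Apoa1 changed by -2.53 with SB203580 and 2.04 with SP600125, a difference of -4.57 ± 0.48 (adjusted p = 0.000143), while the difference from U0126 was -1.39 ± 0.48 (0.194). Mapkapk3 differed from SP600125 (-1.77 ± 0.22, adjusted p = 0.000433) and stood at -0.77 ± 0.22 against U0126 (0.0999). Rfx4 likewise differed from SP600125 (-1.92 ± 0.21, adjusted p = 0.000143). Egr1 differed from U0126 (2.01 ± 0.37, adjusted p = 0.0109), the MEK inhibitor, and its difference from SP600125 was 1.06 ± 0.37 (0.252). Cdx1, Cyp51, Fdft1 and both Lefty genes differed from U0126. For Cdx1 that difference was -2.02 ± 0.35 (adjusted p = 0.00702), beside -0.17 ± 0.35 from SP600125 (0.929). For Cyp51 it was -1.07 ± 0.17 (0.00416) beside -0.17 ± 0.17 (0.813), and for Lefty2 -2.24 ± 0.47 (0.0219) beside -1.72 ± 0.47 (0.113).

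Genes that differed from neither included Amn, Papss2, Dkk1, Upk1b, Csta1, Nsdhl, Krt19, Cpt1a and Ap5z1. Amn changed by -1.80, -1.60 and -1.53 with SB203580, SP600125 and U0126, with differences of -0.20 ± 0.26 and -0.27 ± 0.26 between SB203580 and the others. Krt19 changed by 1.26, 1.19 and 1.20, with differences of 0.08 ± 0.25 and 0.07 ± 0.25. Csta1 changed by -1.04, -0.81 and -1.13, with differences of -0.23 ± 0.13 and 0.10 ± 0.13. For Ap5z1, whose controls 2 and 3 lay under the expression filter, the changes were 2.89, 2.42 and 2.58, and the differences 0.47 ± 0.43 and 0.31 ± 0.43. A difference that did not pass does not show that the inhibitors act alike, and these changes rest on the same 3 controls.

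**Figure D4:**
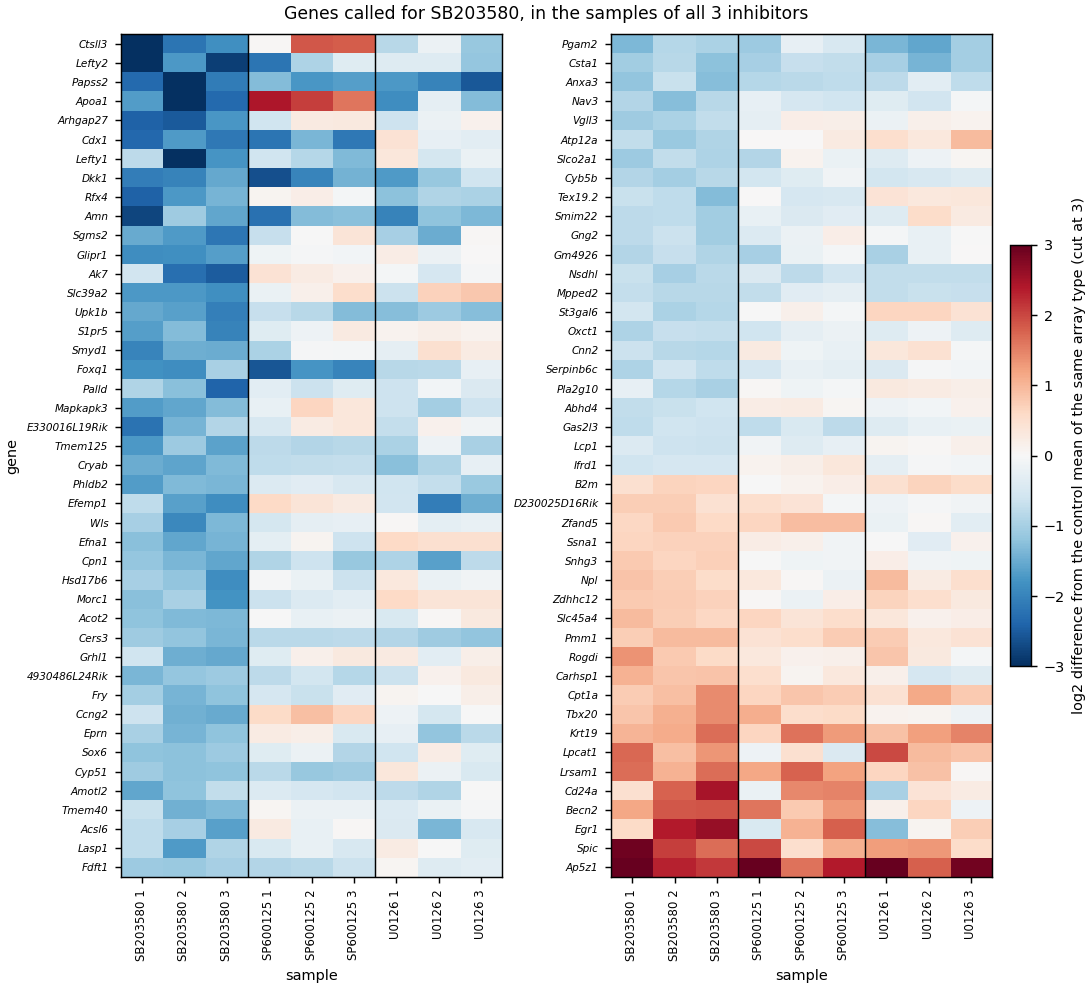
Log2 difference of each inhibitor-treated sample from the control mean of the same array type (colour, limited at 3 either way) for the 88 genes called for SB203580, 1 gene a line by its brightest called probe set, ordered from the largest fall to the largest rise over 2 panels. The first 3 columns of each panel, SB203580, are blue or red by choice of the genes, and lines such as Glipr1 and Slc39a2 are pale under SP600125 while Amn and Krt19 keep their colour under all 3 inhibitors.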

How the data were processed

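Each deposited value is the intensity of a probe set, unlogged, and the authors had scaled every array to a trimmed mean of 500, as computed from the values. The software was not given in the sources used here, nor was the way probes were summarised. Probe sets of 430A and 430B arrays were joined, 100 on both taking the 430A value, and 64 control probe sets were left out. Of 45037 probe sets, 34945 named 1 gene in the platform annotation, 932 several and 9160 none. The log2 of signal plus 12.6, the 20th percentile of 430 2.0 values, was taken. The test took the 27022 probe sets, 22545 naming 1 gene, with a 430 2.0 mean of at least 42.9, the 40th percentile.

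Limma 3.58.1 in R 4.3.3 fitted all 12 samples with 4 groups and array type as a block (lmFit, eBayes with an intensity trend). Residual degrees of freedom were 7 and prior ones 9.71 at the median. Tests were two-sided, Benjamini-Hochberg adjustment covered every probe set tested, and calls were made under 0.05. Differences per sample are from the control mean of the same array type. Arrays carry no counts, and their number limits the precision. In simulated data for SB203580 against control, with 27022 probe sets, the fit recovered 41 percent of log2 changes of 1 and 84 percent of those of 2, beside 9 false calls. The simulated noise was independent and normal, with the spread that this same fit, including its intensity trend, had estimated. These figures therefore hold only under that model and cannot test it.

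The comparison, the 43 gene lists, the 20 symbol families and the rules were chosen with earlier results of these data known. Named by rule were genes of p38 and its substrate kinases, the 12 largest rises and 15 largest falls among called genes with 1 sign in all samples, up to 4 called members of each list or up to 2 uncalled with the largest absolute t, any other called gene, and defining markers. Lists are described by counts and the median of 1 probe set per gene, the brightest. No set test was run. Alternatives were offsets of 50 and 1, quantile or median scaling, other filters, fewer samples, a replicate block, no trend, a robust fit, leaving out probe sets ending in _x_at or _s_at, gene means and leaving out each sample. Same-numbered samples were not taken as pairs, since differences of samples 2 and 3 correlated by 0.088 between control and SB203580.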

Additional observations from a re-analysis of the deposited data

How the results depend on the processing

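Of the main count of 105 probe sets, the 430 2.0 arrays alone gave 35 and the fit without the intensity trend 1. Leaving out 1 sample gave 33 to 79. The replicate block gave 121, 104 of them among the 105. The other settings gave 71 (arrays divided by their medians) to 140 (filter at the 60th percentile). The main fit gave 24 called probe sets that differed from both other inhibitors. Taken anew in each setting, this count was 15 with arrays divided by their medians and 12 on the 430 2.0 arrays alone. It was 1 without the trend and 8 to 24 with 1 sample left out. Leaving out an SB203580 sample gave 102 to 142 against SP600125, from 213, and 145 to 216 against U0126, from 371. Averaging the probe sets of each gene called 85 genes, against 88, and 60 of the 88 passed by their own mean. Over the 88 called genes and 5 genes of p38 and its substrate kinases, with each setting that gave a value, 1174 values kept their side of the threshold and 577 lost their call. No called change turned its sign, while the uncalled Mapkapk2 ran from -0.29 to 0.19 and Mknk1 from -0.06 to 0.45. The cause of these differences was not tested. Called sizes of 7 probe sets rest on a group mean below 4 times the added constant, where signal over background limits the fold.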
